A study of Homo sapiens with 30 samples.

Results

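The genes described here are 10 that take part in protein breakdown in lysosomes and in the preparation of antigens for MHC class II. They are 7 cathepsins (CTSS, CTSL, CTSB, CTSD, CTSZ, CTSC and CTSO), the thiol reductase IFI30, the asparaginyl endopeptidase LGMN and the transcription factor RFX5. They were chosen by name, and all 10 were found among the 61471 genes of the expression table of each of 2 glioblastoma cell lines. U87 and U251 are established human glioma lines, labelled U87-MG and U251-MG and wild type. Their RNA was sequenced in cells without IFN-γ (Untreated), after 3, 14 or 28 days with IFN-γ (D3, D14 and D28), and after 14 days with it followed by 14 days without it (D28WO), with 3 biological replicates per group in the labels, described in the study as separately started and treated cultures. The study states that both lines are often misidentified and were not authenticated by STR profiling. The labels and the study's methods give different IFN-γ doses and different collection days for Untreated cells (day 3 in the labels), and no untreated cells from day 14 or day 28 are among the groups, so time in culture and time in IFN-γ cannot be told apart.

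Proteins that reach the lysosome are cut by proteases into peptides. In cells that make MHC class II molecules, some of these proteases cut down the invariant chain (CD74), part of which fills the peptide groove until a peptide replaces it. IFN-γ turns on class II genes through the coactivator CIITA, which is recruited to class II promoters by DNA-bound factors that include the RFX complex. Resting glial cells hold little class II, and its appearance in glioma cells after IFN-γ is well known.

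Expression was given as TPM, a transcript level scaled to transcript length and to the sum of each library, so that levels of different genes can be set side by side within a line. Every library sums to the same total and keeps no sequencing depth. U87 had 13 usable libraries, with 2 at D3 and 2 at D14 (replicates 2 and 3), because 2 columns carried the same name, and U251 had 15. Correlations within groups ranged from 0.960 to 0.974 in U87 and from 0.959 to 0.974 in U251, and no library was a copy of another. Of 7 glial markers, 5 in U87 and 6 in U251 were at 1 TPM or more in every library. GFAP, the intermediate filament of astrocytes, lay between 2.33 and 19.1 TPM in U87, and SOX2 under 0.412 TPM. In U251 GFAP fell from between 1219 and 1309 TPM in Untreated to between 222 and 255 TPM at D28. Of 9 myeloid markers, whose cells are rich in cathepsins, TYROBP was at 0 in every library of both lines. Their summed level in U87 was 59.7 to 66.3 TPM in Untreated, 51.2 to 67.9 TPM at D28 and 21.4 to 35.9 TPM at D28WO, most of it CSF1R. In U251 it was 4.87 to 5.49 TPM in Untreated, 10.6 to 18.4 TPM at D28 and 5.12 to 10.6 TPM at D28WO. At D3 in U251, CD14 (3.11 to 5.75 TPM) and FCER1G (5.10 to 7.51 TPM) lay above Untreated (at most 1.26 and 0.963 TPM). The ranges of the other myeloid markers met those of Untreated there.

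Changes were tested with limma on log2(TPM + 1) within a line, and a gene passed with a Benjamini-Hochberg adjusted p under 0.05 over all genes tested (22918 in U87, 23667 in U251). All 10 members had a mean above the filter of 0.5 TPM in both lines. The median log2 fold change of all genes against Untreated in U87 was 0.20 (D3), 0.15 (D14), 0.19 (D28) and 0.25 (D28WO), and in U251, in the same order, 0.13, 0.096, 0.16 and 0.015. Quantile normalization and median-ratio size factors brought these medians to between -0.026 and 0.075. Some of the smaller changes are therefore also given relative to this median. In bulk RNA, fewer cells with a transcript and less of it per cell cannot be told apart. The comparisons with Untreated share the same control libraries.

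CTSS, CTSO, IFI30 and RFX5 were higher with IFN-γ at D3 and D28 in both lines. At D14 none of these 4 differed from Untreated in U87 by the test, whereas CTSS, IFI30 and RFX5 were above it in U251. CTSC, LGMN and CTSL rose in U251 and did not pass a rise at any time in U87. CTSB passed no rise against Untreated in either line and was lower than Untreated at all 4 times in U251. After 14 days without IFN-γ, CTSS, IFI30 and RFX5 were higher than in Untreated cells and higher than at D14, when withdrawal began, in both lines.

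In U87, 5 of the 10 members passed as higher at D3, where 12.4% of all genes tested did, and none passed as lower (4.28% of all genes, with limma; without Untreated replicate 2, CTSL passed as lower, adjusted p = 0.0469). At D14 none passed as higher (4.14%) and 1, CTSD, as lower (1.02%). At D28 the 5 higher members were again CTSS, CTSO, CTSZ, IFI30 and RFX5 (17.2%), and CTSD and CTSL passed as lower (6.55%). At D28WO the same 5 were higher (28.6%) and CTSB was lower (13.4%). A log2 fold change over 1, the second limit the study used, was met by CTSS and CTSO at D3 (5.85% of all genes), D28 (6.77%) and D28WO (12.8%), and by no member at D14 (1.89%). The median log2 fold change of the 10 members was 0.36, -0.069, 0.41 and 0.27 in the order of the groups. The split of all genes into higher and lower depended on the scaling: 2843 and 980 genes at D3 became 1178 and 1056 under quantile normalization and 1849 and 1866 with median-ratio size factors, and 3945 and 1500 at D28 became 1672 and 1697, and 2598 and 2842.

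In U251, 7 members passed as higher at D3 (24.9% of all genes) and 2 as lower (16% of all genes). At D14 there were 4 higher (13.8%) and 3 lower (7.31%), at D28 8 higher (25.9%) and 1 lower (14.7%), and at D28WO 4 higher (14.3%) and 1 lower (13.4%). A log2 fold change over 1 was met by CTSS at each of the 4 times, by IFI30 at D3, D28 and D28WO, and by CTSC at D28. The shares of all genes that met it as higher were 9.72%, 4.72%, 11.9% and 4.07% in time order. The median log2 fold change of the 10 members was 0.32, 0.12, 0.93 and 0.19. Of all genes, 5890 were higher and 3787 lower at D3, which became 4606 and 4684 under quantile normalization, and 6141 and 3476 at D28 became 4271 and 4684.

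**Figure D1:**
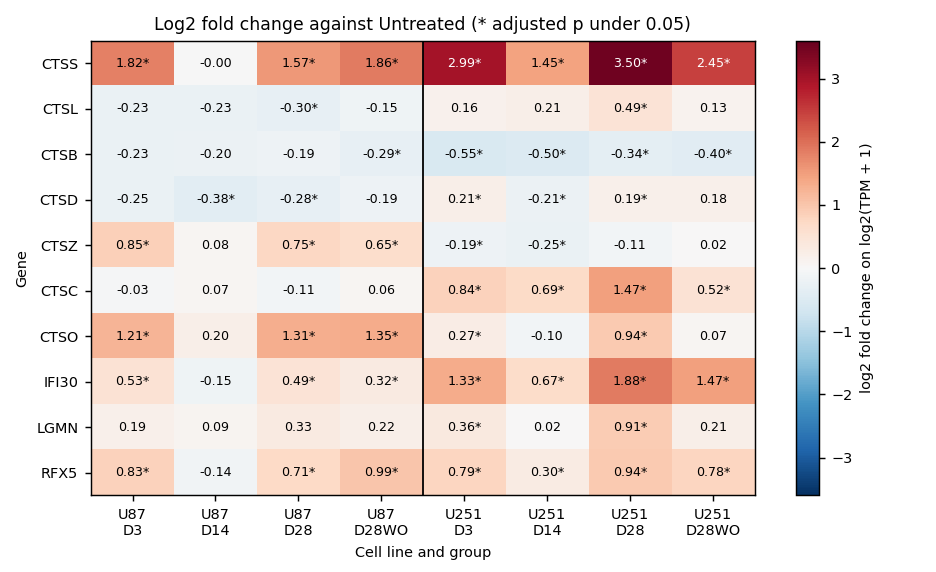
Heatmap of the log2 fold change on log2(TPM + 1) against Untreated for the 10 genes (rows) in the 4 treated groups of U87 and of U251 (columns), where colour and printed number are the same value and an asterisk marks an adjusted p under 0.05. CTSS holds the largest value in 7 of the 8 columns, from 1.45 to 3.50, but not at D14 of U87, where it was -0.0030.

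CTSS (cathepsin S) is the cysteine protease that makes the last cuts in the invariant chain of professional antigen-presenting cells, and it is active at neutral pH. The gene lies on chromosome 1 from 150730079 to 150765957 on the minus strand (GRCh38). In U87 it was at 52.0, 55.7 and 52.0 TPM in the Untreated libraries, 186 and 196 TPM at D3, 54.9 and 51.3 TPM at D14, 150.4, 161 and 168 TPM at D28, and 188, 208 and 192 TPM at D28WO. Every library of D3, D28 and D28WO was above every Untreated one, and those of D14 overlapped with it. The log2 fold change was 1.82 ± 0.076 (SE) at D3 (adjusted p = 7.51e-08), -0.0030 ± 0.076 at D14 (adjusted p = 1.00, 95% interval -0.17 to 0.16), 1.57 ± 0.068 at D28 (adjusted p = 5.26e-08) and 1.86 ± 0.068 at D28WO (adjusted p = 8.35e-09).

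In U251, CTSS was at 23.8, 26.4 and 21.9 TPM in Untreated, 186, 195 and 212 TPM at D3, 61.4, 68.3 and 72.6 TPM at D14, 283, 286 and 277 TPM at D28, and 125, 142 and 140 TPM at D28WO. The libraries of each treated group were all above those of Untreated, and no 2 of the 5 groups overlapped. The rise was 7.94-fold at D3 (adjusted p = 5.37e-12), 2.73-fold at D14 (adjusted p = 3.07e-08), 11.3-fold at D28 (adjusted p = 1.09e-12) and 5.46-fold at D28WO (adjusted p = 4.75e-11). CTSS thereby moved from the lowest of the 10 genes in Untreated U251 cells to the fourth highest at D3 and D28.

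CTSL (cathepsin L, chromosome 9, 87724051 to 87731469, plus strand) is a broadly expressed cysteine protease of the lysosome. In U87 it was at 212, 209 and 252 TPM in Untreated, 189.8 and 191 TPM at D3, 197 and 185 TPM at D14, 181, 175 and 189 TPM at D28, and 205, 200.4 and 199 TPM at D28WO. All treated libraries were below all Untreated ones, but the third Untreated library was well above the other two. Of these falls only that at D28 passed (log2 fold change -0.30 ± 0.072, adjusted p = 0.0122; -0.49 relative to all genes), and it did not with quantile normalization (adjusted p = 0.0813) or with only those 2 groups fitted (0.0848). With median-ratio size factors CTSL also passed as lower at D28WO (-0.38, adjusted p = 0.0271). In U251 CTSL was higher at D28, at 211, 216 and 203 TPM against 138, 150.4 and 160.4 TPM in Untreated (log2 fold change 0.49 ± 0.075, adjusted p = 0.00014). The D14 libraries of U251 (162, 179 and 180.0 TPM) also lay above Untreated, with a log2 fold change of 0.21 that did not pass (adjusted p = 0.0582). It passed without Untreated replicate 3 (0.0422), without D14 replicate 1 (0.0407), with the replicate block (0.0227), with array weights (0.027) and with quantile normalization (0.0194). At D3 the CTSL value of U251, 0.16 (adjusted p = 0.11), passed without D3 replicate 1 (0.0138), with the replicate block (0.0484) and with quantile normalization (0.0479).

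**Figure D2:**
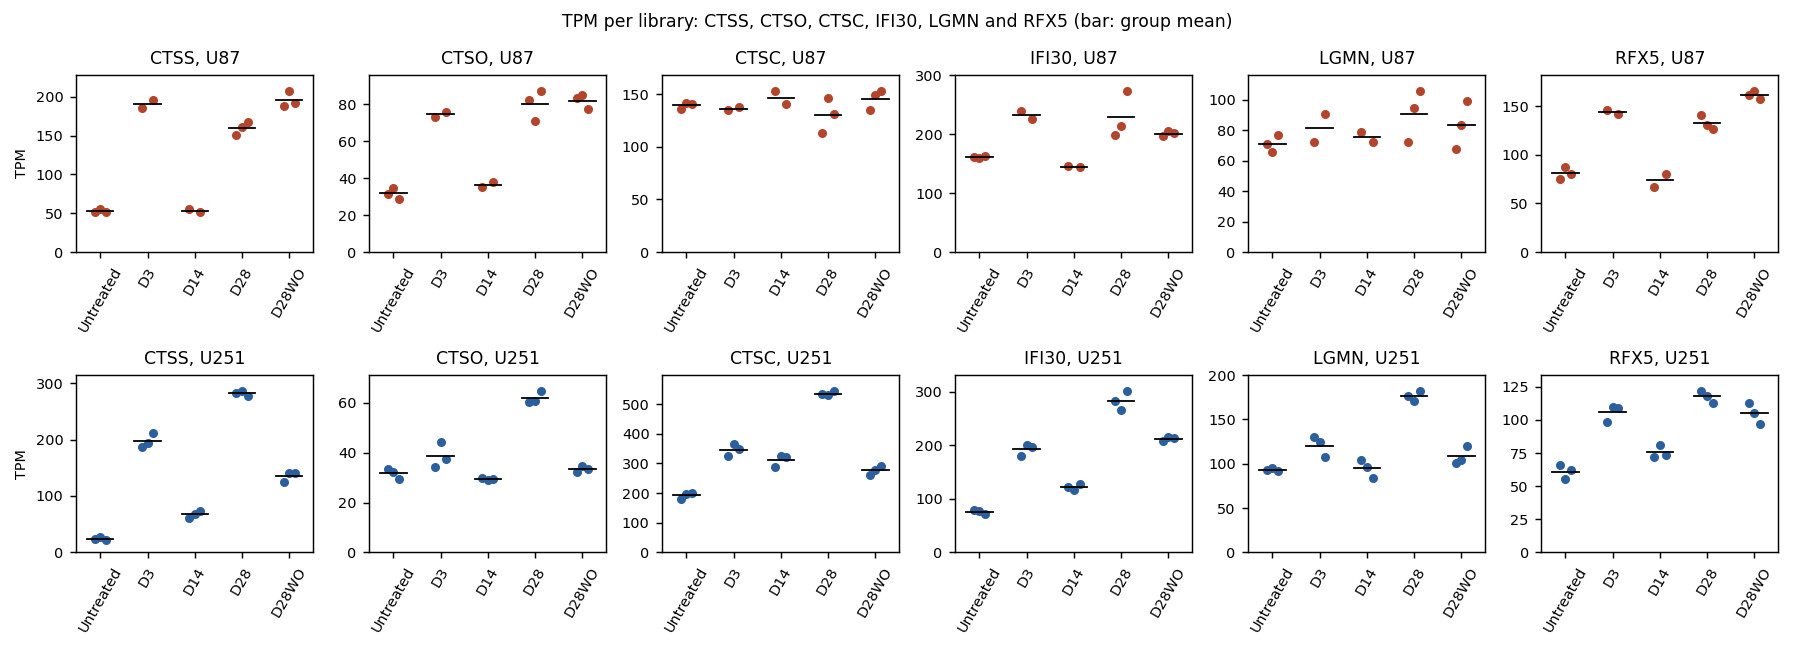
TPM (y axis, from 0) of CTSS, CTSO, CTSC, IFI30, LGMN and RFX5 in each library (points) of the 5 groups (x axis), with bars at the group mean, for U87 (top) and U251 (bottom). In U87 the D14 points of CTSS, CTSO and RFX5 sit near those of Untreated and the points of D3, D28 and D28WO above them, and in U251 D28 holds the highest mean of each gene.

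The ratio of CTSS to CTSL was 0.239 ± 0.0305 (SD, n = 3) in Untreated U87 cells. It was 1.00 (D3), 0.278 (D14), 0.880 ± 0.0459 (D28) and 0.971 ± 0.0613 (D28WO) in the treated groups. The same ratio in U251 started at 0.161 ± 0.0214 and reached 1.18 ± 0.0791 (D3), 0.388 ± 0.0133 (D14), 1.34 ± 0.0204 (D28) and 0.829 ± 0.0341 (D28WO). CTSS transcripts were thus under those of CTSL in every Untreated and D14 library of both lines and above them in every D3 and D28 library of U251. Of the summed TPM of the 7 cathepsins, CTSS made up 5.02% ± 0.582 in Untreated U87 cells and 17.0% (D3), 5.69% (D14), 14.8% ± 0.542 (D28) and 17.0% ± 0.593 (D28WO) after the start of IFN-γ. Its share in U251 was 1.88% ± 0.187 without IFN-γ and 12.4% ± 1.08 (D3), 5.20% ± 0.304 (D14), 14.3% ± 0.329 (D28) and 9.11% ± 0.440 (D28WO) in the treated groups. The sum itself was 1068 ± 102 TPM in Untreated and 1080 ± 49.6 TPM at D28 in U87, and 1281 ± 30.7 and 1971 ± 15.5 TPM in U251, where CTSC added most.

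**Figure D3:**
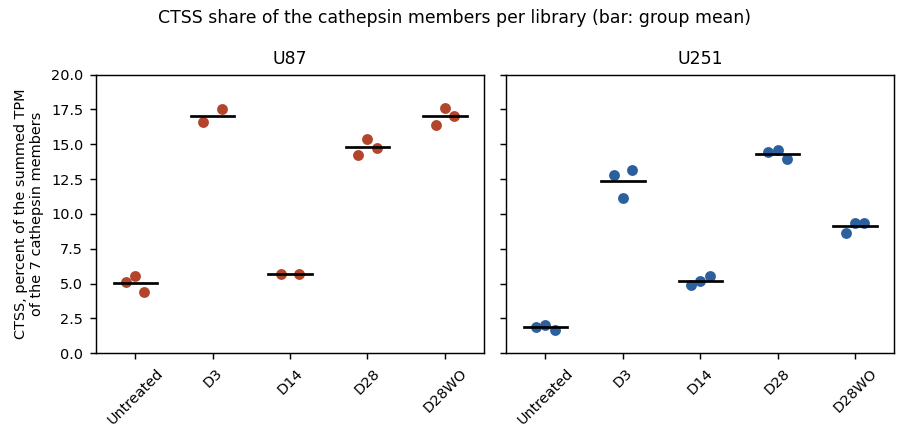
CTSS as a percent of the summed TPM of the 7 cathepsins (y axis, from 0) in each library (points) of the 5 groups (x axis), with bars at the group mean, for U87 (left) and U251 (right). Every D3, D28 and D28WO library of a line is above every Untreated and D14 library of that line.

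CTSB (cathepsin B, chromosome 8, minus strand), a cysteine protease with both endopeptidase and carboxypeptidase activity, was the most abundant of the 10 in Untreated U87 cells. There its libraries were at 287, 284 and 363 TPM in Untreated, 265 and 263 TPM at D3, 279 and 260.3 TPM at D14, 280.1, 253 and 282 TPM at D28, and 259, 258 and 244 TPM at D28WO. All treated libraries lay below all Untreated ones, of which the third was the highest. The fall passed at D28WO only (log2 fold change -0.29 ± 0.088, adjusted p = 0.0206, or -0.54 relative to all genes), and not without Untreated replicate 3 (-0.17, adjusted p = 0.0554), without D28WO replicate 3 (adjusted p = 0.0713), with no filter on low values (0.0799), with only the 2 groups fitted (0.0783) or with quantile normalization (-0.044, adjusted p = 0.519). In U251 CTSB was at 279, 297 and 291 TPM in Untreated and at 182, 233 and 182 TPM at D3, 199, 212 and 200.5 TPM at D14, 229, 222 and 233 TPM at D28, and 229, 214 and 213 TPM at D28WO. None of the treated libraries reached an Untreated one. The log2 fold changes of -0.55, -0.50, -0.34 and -0.40 (SE 0.078 each) had adjusted p-values of 7.71e-05, 0.000481, 0.00315 and 0.00151, and they were -0.68, -0.60, -0.51 and -0.42 relative to all genes.

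CTSD (cathepsin D, chromosome 11, 1752752 to 1764573, minus strand), the main aspartic protease of the lysosome, was the most abundant of the 10 in Untreated U251 cells. Its libraries there were at 482, 474 and 489 TPM in Untreated, 487, 635 and 555 TPM at D3, 409.8, 419 and 419.5 TPM at D14, 539, 546 and 561 TPM at D28, and 536, 561 and 542 TPM at D28WO. The D14 libraries were below Untreated and those of D28 and D28WO above it, while D3 overlapped with Untreated. The log2 fold changes were small: 0.21 at D3 (adjusted p = 0.0286), -0.21 at D14 (adjusted p = 0.0453), 0.19 at D28 (adjusted p = 0.044) and 0.18 at D28WO (adjusted p = 0.0686), or 0.08, -0.31, 0.02 and 0.17 relative to all genes. The call at D14 was lost without any 1 of the Untreated or D14 libraries (adjusted p of 0.0837 to 0.118), that at D28 without any 1 of the Untreated or D28 libraries (0.0713 to 0.119), and that at D3 without any 1 of the Untreated libraries (0.0518 to 0.0798), without D3 replicate 2 (0.105) or without D3 replicate 3 (0.0615). With no filter on low values none of the 3 passed (0.0994, 0.145 and 0.135), and with only the 2 groups fitted that at D3 did not (0.188). Quantile normalization brought the D14 value to -0.042 (adjusted p = 0.537), and median-ratio size factors brought that at D3 to 0.10 (0.369) and that at D28 to 0.074 (0.533). At D28WO the rise passed with array weights (0.0175), with only the 2 groups fitted (0.0218) and with quantile normalization (0.000192).

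In U87 CTSD was at 287, 277 and 345 TPM in Untreated, 265 and 243 TPM at D3, 236 and 227 TPM at D14, 239, 232 and 274 TPM at D28, and 266, 274 and 252 TPM at D28WO. Again all treated libraries were below all Untreated ones, with the third Untreated library the highest. The falls passed at D14 (log2 fold change -0.38 ± 0.0997, adjusted p = 0.04997) and D28 (-0.28 ± 0.089, adjusted p = 0.0383), and were -0.53 and -0.47 relative to all genes. Quantile normalization ended both calls, with -0.22 (adjusted p = 0.0874) and -0.095 (0.283), and median-ratio size factors that at D14 (-0.55, adjusted p = 0.0728). With median-ratio size factors CTSD also passed as lower at D28WO (-0.42, adjusted p = 0.0315). Without Untreated replicate 3 they were -0.28 (adjusted p = 0.123) and -0.19 (0.135), without Untreated replicate 1 the adjusted p-values were 0.0687 and 0.0512, and with the replicate block they were 0.0702 and 0.054. The call at D14 was also lost without D14 replicate 2 (0.181) or 3 (0.241), and that at D28 without D28 replicate 1 (0.109) or 2 (0.132), and neither passed with no filter on low values (0.168 and 0.138) or with only the 2 groups fitted (0.208 and 0.155). Exons of CTSD share 22.9% of their bases with ENSG00000250644 on the same strand and 23.4% with the long noncoding RNA PRADX on the other, so their reads may be split, and CTSD values are uncertain to that extent. PRADX stayed under 1.90 TPM in every library, and ENSG00000250644 had group means of 53.6 to 60.1 TPM in U87 and 96.3 to 129 TPM in U251.

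CTSZ (cathepsin Z, also called cathepsin X, chromosome 20, 58985686 to 59008238, minus strand) is a carboxypeptidase. In U87 it was the lowest of the 10, at 4.97, 5.59 and 4.14 TPM in Untreated, 9.20 and 10.0 TPM at D3, 4.90 and 5.53 TPM at D14, 9.37, 10.3 and 7.22 TPM at D28, and 8.59, 7.75 and 8.24 TPM at D28WO. Its libraries at D3, D28 and D28WO were above those of Untreated and its D14 libraries among them, as for CTSS. The log2 fold changes of 0.85 ± 0.201 at D3, 0.75 ± 0.180 at D28 and 0.65 ± 0.180 at D28WO had adjusted p-values of 0.0152, 0.0122 and 0.0129. The call at D3 was lost without D3 replicate 2 (log2 fold change 0.91, adjusted p = 0.0736) or D3 replicate 3 (0.80, 0.0792) and, as at D28 and D28WO, with quantile normalization (0.37, 0.25 and 0.064). With only the 2 groups fitted CTSZ passed neither at D3 (adjusted p = 0.106) nor at D28 (0.0818). In U251, where Untreated cells held 109.8, 111 and 114 TPM, CTSZ was lower at D3 (94.6, 101 and 98.4 TPM; log2 fold change -0.19, adjusted p = 0.0114) and D14 (100.4, 90.05 and 91.0 TPM; -0.25, adjusted p = 0.00402). The later log2 fold changes, -0.11 at D28 (adjusted p = 0.129) and 0.017 at D28WO (adjusted p = 0.868), did not pass, but with median-ratio size factors CTSZ passed as lower at D28 (-0.22, adjusted p = 0.0105). CTSZ shares 31.7% of its exon bases with NELFCD on the opposite strand. NELFCD lay at 71.4 ± 3.73 TPM in Untreated U87 cells, 70.4 ± 4.91 TPM at D3, 80.8 ± 0.215 TPM at D14, 68.6 ± 5.06 TPM at D28 and 58.9 ± 3.75 TPM at D28WO. In U251 it was at 102 ± 1.90 TPM in Untreated, 75.2 ± 5.42 TPM at D3, 98.2 ± 1.48 TPM at D14, 78.0 ± 3.18 TPM at D28 and 77.1 ± 1.92 TPM at D28WO. CTSZ in U251 had group means of 112 TPM in Untreated and 113 TPM at D28WO. The part of NELFCD in the CTSZ values was not tested. Whether the counting used strand is not given in the sources used here, so the low CTSZ values of U87 are uncertain.

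**Figure D4:**
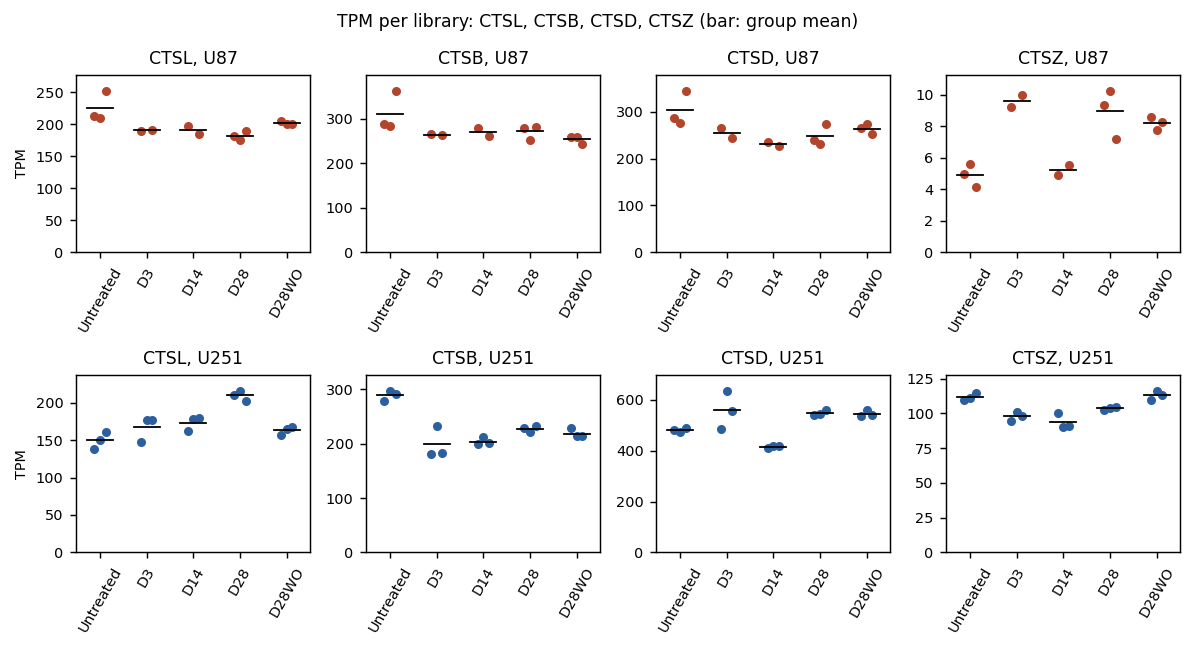
TPM (y axis, from 0) of CTSL, CTSB, CTSD and CTSZ in each library (points) of the 5 groups (x axis), with bars at the group mean, for U87 (top) and U251 (bottom). In U87 the highest Untreated point of CTSL, CTSB and CTSD is the same library, and CTSZ stays under 10.3 TPM in U87 and at or above 90.05 TPM in U251.

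CTSC (cathepsin C, or dipeptidyl peptidase I, chromosome 11, 88265069 to 88359684, minus strand) activates granule serine proteases in immune cells by removing dipeptides. In U251 it was at 181, 197 and 202 TPM in Untreated, 325, 364 and 349 TPM at D3, 288, 325 and 322 TPM at D14, 533, 530.5 and 545 TPM at D28, and 261, 278 and 291 TPM at D28WO. Every treated library exceeded every Untreated one, and those of D28 were the highest. The log2 fold changes were 0.84 ± 0.063 at D3 (adjusted p = 1.73e-07), 0.69 ± 0.063 at D14 (adjusted p = 5.17e-06), 1.47 ± 0.063 at D28 (adjusted p = 5.32e-10) and 0.52 ± 0.063 at D28WO (adjusted p = 2.99e-05). In U87 the 13 libraries ranged from 113 to 153 TPM, and the groups overlapped with Untreated at every time. The log2 fold changes there lay between -0.11 and 0.071, and the 95% interval at D28 was from -0.30 to 0.09 (adjusted p = 0.426).

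CTSO (cathepsin O, chromosome 4, 155921580 to 155953912, minus strand) is a little-studied member of the cysteine cathepsins. In U87 it was at 31.6, 34.8 and 28.8 TPM in Untreated, 73.3 and 75.7 TPM at D3, 35.0 and 38.0 TPM at D14, 82.2, 71.1 and 87.4 TPM at D28, and 83.6, 85.1 and 77.4 TPM at D28WO. The D14 libraries were just above the highest Untreated one, with a log2 fold change of 0.20 (adjusted p = 0.295). At D3, D28 and D28WO CTSO was 2.31-fold (adjusted p = 1.95e-05), 2.48-fold (2.78e-06) and 2.54-fold (1.23e-06) above Untreated. In U251 it was at 33.6, 32.2 and 29.6 TPM in Untreated and at 60.5, 60.7 and 64.8 TPM at D28, a 1.92-fold rise (adjusted p = 1.58e-06). At D3 it was at 34.3, 44.4 and 37.7 TPM, all above Untreated (log2 fold change 0.27 ± 0.089, adjusted p = 0.0255), a call lost without D3 replicate 2 (0.17, adjusted p = 0.0994), without Untreated replicate 3 (0.0956), with only the 2 groups fitted (0.124) or under quantile (0.218) or median-ratio scaling (0.159). Its D14 (29.1 to 29.9 TPM) and D28WO libraries (32.3 to 34.7 TPM) overlapped with Untreated.

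IFI30 encodes the γ-interferon-inducible lysosomal thiol reductase, which opens disulfide bonds of antigens in the lysosome. In U87 it was at 161, 159 and 162 TPM in Untreated, 239 and 225 TPM at D3, 146 and 144 TPM at D14, 199, 214 and 274 TPM at D28, and 197, 205 and 201 TPM at D28WO. Its libraries were above Untreated at D3, D28 and D28WO and below it at D14. The rises were 1.44-fold at D3 (adjusted p = 0.00686), 1.41-fold at D28 (0.00384) and 1.25-fold at D28WO (0.0174), while the log2 fold change of -0.15 at D14 did not pass (adjusted p = 0.442). The call at D3 was lost without D3 replicate 2 (log2 fold change 0.48, adjusted p = 0.0795) and that at D28WO without D28WO replicate 2 (0.31, adjusted p = 0.054), and median-ratio scaling ended all 3 (0.34, 0.31 and 0.093). The call at D28 was also lost with only the 2 groups fitted (adjusted p = 0.0619) and that at D28WO with no filter on low values (0.0704). Relative to the median of all genes the log2 fold changes of IFI30 were 0.33, 0.30 and 0.069. In U251 IFI30 rose from 78.3, 78.1 and 72.2 TPM in Untreated to 181, 201 and 197 TPM at D3, 122, 116 and 127 TPM at D14, 284, 266 and 302 TPM at D28, and 208, 215 and 215 TPM at D28WO. No group overlapped with another, and the folds against Untreated were 2.51 (adjusted p = 1.08e-09), 1.59 (4.47e-06), 3.69 (2.49e-11) and 2.77 (4.57e-10).

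IFI30 lies on chromosome 19 from 18173162 to 18178117 on the plus strand. It shares 42.5% of its exon bases with ENSG00000268173 on the same strand, and reads of the pair cannot be told apart there. That gene's level moved with it, from 30.0 ± 1.23 TPM in Untreated to 45.1 ± 2.09 TPM at D28 in U87 and from 13.1 ± 0.612 to 53.2 ± 0.765 TPM in U251.

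LGMN (legumain, chromosome 14, 92703807 to 92748679, minus strand) cuts after asparagine and starts the processing of some antigens and of other cathepsins. In U251 it was at 92.9, 94.99 and 92.4 TPM in Untreated, 129.9, 125 and 107 TPM at D3, 105, 96.0 and 84.4 TPM at D14, 177, 171 and 182 TPM at D28, and 100.5, 104 and 120.3 TPM at D28WO. D3, D28 and D28WO were above Untreated in every library and D14 overlapped with it. The rise passed at D3 (log2 fold change 0.36 ± 0.089, adjusted p = 0.00525) and D28 (0.91 ± 0.089, adjusted p = 2.27e-06), but not at D28WO (0.21, adjusted p = 0.105). In U87 LGMN ranged from 65.6 to 76.9 TPM in Untreated and from 72.5 to 106 TPM at D28, with overlap at every time. No LGMN difference passed in U87 (adjusted p of 0.152 to 0.823 against Untreated), and at D28 the 95% interval of the log2 fold change was from -0.01 to 0.68.

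RFX5 (chromosome 1, 151340640 to 151347326, minus strand) encodes the DNA-binding subunit of the RFX complex, which sits on the X box of class II promoters. In U87 it was at 75.4, 87.6 and 79.9 TPM in Untreated, 147 and 142 TPM at D3, 67.1 and 80.5 TPM at D14, 141, 131 and 127 TPM at D28, and 162, 166 and 158 TPM at D28WO. The D14 libraries overlapped with Untreated and those of the other treated groups were all above it. RFX5 was 1.77-fold higher at D3 (adjusted p = 0.000123), 1.63-fold at D28 (0.000122) and 1.99-fold at D28WO (3.59e-06). In U251 it was at 65.7, 55.6 and 61.9 TPM in Untreated, 98.3, 110.0 and 109 TPM at D3, 72.0, 81.3 and 73.4 TPM at D14, 122, 118 and 113 TPM at D28, and 113, 106 and 97.3 TPM at D28WO. All treated libraries exceeded all Untreated ones. The log2 fold changes were 0.79, 0.30, 0.94 and 0.78 (SE 0.079 each), with adjusted p-values of 2.9e-06, 0.0137, 4.73e-07 and 5.4e-06, and the call at D14 was lost without Untreated replicate 2 (0.24, adjusted p = 0.0658) or D14 replicate 2 (0.25, adjusted p = 0.0614) and with median-ratio size factors (0.22, adjusted p = 0.0795) or only the 2 groups fitted (0.0581). Other genes on the opposite strand share 7.86% (ENSG00000224645) and 2.68% (RFX5-AS1) of its exon bases.

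Promoter sequences of 6 of the 10 members (CTSL, CTSD, CTSZ, CTSC, IFI30 and RFX5) were found in RefSeq (GRCh38.p14), each from 250 bases before to 50 after a start site. CTSB was left out of the search, so its absence says nothing about RefSeq. CTSS, CTSO and LGMN were not among those found. Those of IFI30 and RFX5 are shown because these genes moved together, and that of CTSD because its changes were small. RFX5 has 3 listed start sites, of which start site 2 is shown. That choice of start site does not follow from the movement of the gene. Capitals mark matches on either strand to CACGTG (the E-box bound by TFEB-type factors, in 7.26% of all 35116 promoters), CCAAT (bound by NF-Y, in 34.6%) and to the core of the interferon-stimulated response element, which is GAAA, any 2 bases and GAAA again (in 3.57%).
IFI30, chr19:18173563-18173862, plus strand: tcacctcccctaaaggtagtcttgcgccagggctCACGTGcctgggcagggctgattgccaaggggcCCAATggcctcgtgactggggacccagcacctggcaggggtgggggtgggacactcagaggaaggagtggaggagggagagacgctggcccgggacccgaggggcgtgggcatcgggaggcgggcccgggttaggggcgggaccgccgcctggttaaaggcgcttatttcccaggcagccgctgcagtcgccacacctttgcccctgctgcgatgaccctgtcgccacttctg
RFX5, chr1:151346950-151347249, minus strand: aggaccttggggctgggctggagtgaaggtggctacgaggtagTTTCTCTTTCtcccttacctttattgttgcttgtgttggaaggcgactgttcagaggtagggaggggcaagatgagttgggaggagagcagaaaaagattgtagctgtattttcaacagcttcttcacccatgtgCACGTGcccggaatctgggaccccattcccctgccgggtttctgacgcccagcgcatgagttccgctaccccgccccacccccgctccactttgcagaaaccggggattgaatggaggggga
CTSD, chr11:1763878-1764177, minus strand: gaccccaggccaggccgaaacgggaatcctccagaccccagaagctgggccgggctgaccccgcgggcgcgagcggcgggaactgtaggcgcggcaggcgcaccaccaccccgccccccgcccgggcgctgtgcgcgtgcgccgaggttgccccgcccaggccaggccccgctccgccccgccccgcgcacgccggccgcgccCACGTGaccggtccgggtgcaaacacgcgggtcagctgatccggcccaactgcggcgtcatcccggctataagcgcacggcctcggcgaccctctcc
In the IFI30 window CACGTG starts at -216 and CCAAT at -183 from the start site. The RFX5 window holds the response element on its minus strand, at -207, and CACGTG at -72. No other window of the 6 members matched the response element, including those of RFX5 start sites 1 and 3. The first start site of RFX5 has CCAAT at -177 and -95, and the window of the third overlaps that of the second, so that the same CACGTG lies there at -215. In CTSD, CACGTG starts at -47, and CCAAT lies at -86 in CTSL and at -84 in CTSC. These matches describe letters in the windows only.

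From D3 to D14, with IFN-γ present throughout, 4 members passed as lower in U87 (3.32% of all genes), CTSS 3.55-fold (adjusted p = 2.39e-07), CTSO 2.02-fold (0.000341), RFX5 1.95-fold (0.000136) and IFI30 1.60-fold (0.00543). With only these 2 groups of 2 libraries fitted, none passed (adjusted p of 0.0749 to 0.102), and IFI30 was also lost without D3 replicate 2 (0.0676) or D14 replicate 3 (0.051). In U251, CTSS, CTSO, IFI30, RFX5, CTSD and LGMN passed as lower (12.6% of all genes). The fall of CTSS was 2.90-fold (adjusted p = 2.43e-08) and that of IFI30 1.58-fold (3.85e-06), and the other 4 fell between 1.27-fold and 1.40-fold. LGMN was lost without D3 replicate 1 (0.0542) or D14 replicate 3 (0.0595), or with only these 2 groups fitted (0.0916), which also ended the call of CTSO (0.067).

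From D14 to D28 under continued IFN-γ, CTSS (2.97-fold, adjusted p = 2.32e-07), CTSO (2.16-fold, 6.55e-05), RFX5 (1.79-fold, 0.000164) and IFI30 (1.56-fold, 0.00434) rose in U87, where 2.94% of all genes did. The IFI30 call was lost without D14 replicate 2 (0.0521) or 3 (0.0538) and with only the 2 groups fitted (0.174). In U251 8 members rose (11.3%): CTSS 4.15-fold, IFI30 2.32-fold, CTSO 2.06-fold, LGMN 1.86-fold, CTSC 1.72-fold, RFX5 1.55-fold, CTSD 1.32-fold and CTSL 1.21-fold. CTSL (adjusted p = 0.0184) was lost without D14 replicate 1 (0.0753), D28 replicate 1 (0.0527) or D28 replicate 2 (0.0697), with no filter on low values (0.0581) and with median-ratio size factors (0.0749), and the adjusted p-values of the other 7 were 0.000991 or less.

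Cells from which IFN-γ was withdrawn at day 14 were also compared with the D14 cells. In U87 the same 4 genes were higher at D28WO than at D14 (14.3% of all genes), CTSS 3.63-fold (adjusted p = 5.26e-08), CTSO 2.22-fold (2.05e-05), RFX5 2.19-fold (7.42e-06) and IFI30 1.38-fold (0.00725). IFI30 was lost without D14 replicate 2 (0.0508) or 3 (0.0533). In U251 CTSS (2.00-fold, adjusted p = 1.08e-06), IFI30 (1.74-fold, 5.29e-07), RFX5 (1.39-fold, 0.000539), CTSD (1.31-fold, 0.000862) and CTSZ (1.204-fold, 0.00188) were higher (10.6%). CTSC and CTSO, with log2 fold changes of -0.17 and 0.17, did not pass (adjusted p of 0.0591 and 0.177).

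**Figure D5:**
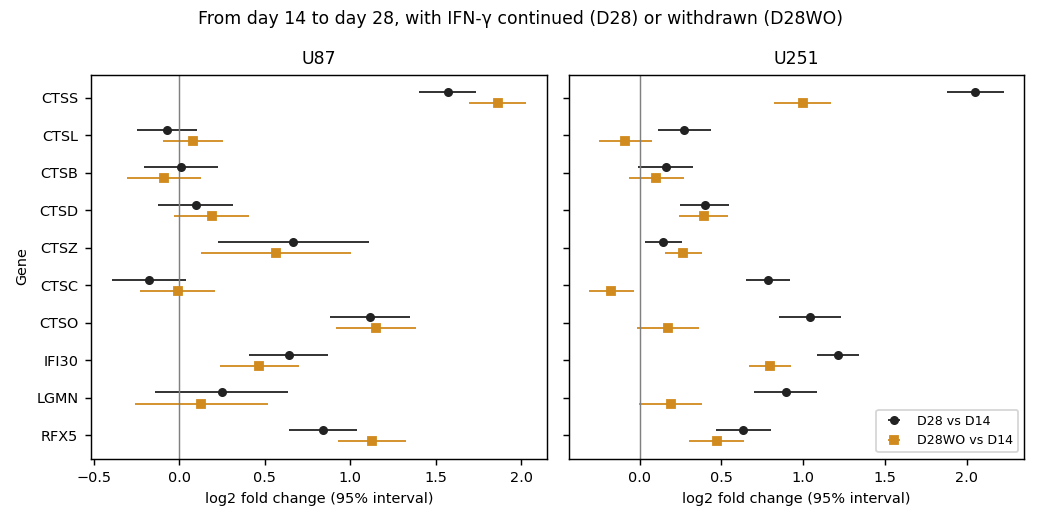
Log2 fold change with its 95% interval (x axis) from D14 to D28 with IFN-γ continued (black circles) and from D14 to D28WO with it withdrawn (orange squares) for each of the 10 genes (y axis), in U87 (left) and U251 (right). In U87 the intervals of CTSS, CTSO, CTSZ, IFI30 and RFX5 lie above 0 in both comparisons. In U251 the intervals of CTSS, CTSL, CTSC, CTSO, IFI30 and LGMN lie lower after withdrawal than with IFN-γ continued.

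The effect of withdrawal itself is the difference between D28WO and D28. In U251 none of the 10 was higher (10.3% of all genes) and 6 were lower after withdrawal (18.8%): CTSS 2.08-fold (adjusted p = 7.46e-07), CTSC 1.94-fold (2.02e-07), CTSO 1.83-fold (9.14e-06), LGMN 1.63-fold (5.94e-05), IFI30 1.33-fold (0.000185) and CTSL 1.28-fold (0.00252). The libraries of the 2 groups did not overlap for any of the 6. RFX5 differed by -0.16 on the log2 scale, which did not pass (adjusted p = 0.141, 95% interval -0.33 to 0.01). In U87 no member was lower (8.44% of all genes), and CTSS (1.22-fold, adjusted p = 0.0119) and RFX5 (1.22-fold, 0.03) were higher (9.9% of all genes). The CTSS call was lost without D28WO replicate 2 (0.0532) and under median-ratio scaling (0.0764). The RFX5 call was lost without D28 replicate 2 (0.0789) or 3 (0.0883) or any 1 of the D28WO libraries (0.0546 to 0.096), with the replicate block (0.0553), with no filter on low values (0.0793) and under median-ratio scaling (0.0986). For CTSO in U87 the log2 difference was 0.036, with a 95% interval from -0.17 to 0.24. The lines were not tested against each other.

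Ordered by level, Untreated U87 cells held CTSB (312 ± 44.6 TPM), CTSD (303 ± 36.8), CTSL (224 ± 24.0), IFI30 (161 ± 1.40), CTSC (139 ± 3.43), RFX5 (81.0 ± 6.20), LGMN (71.3 ± 5.68), CTSS (53.2 ± 2.14), CTSO (31.7 ± 2.98) and CTSZ (4.90 ± 0.729; SD, n = 3). The libraries of CTSB and CTSD, and those of RFX5 and LGMN, overlapped, and other neighbours did not. In Untreated U251 cells the order was CTSD (482 ± 7.57 TPM), CTSB (289 ± 9.13), CTSC (193 ± 10.6), CTSL (150 ± 11.004), CTSZ (112 ± 2.37), LGMN (93.4 ± 1.38), IFI30 (76.2 ± 3.47), RFX5 (61.1 ± 5.09), CTSO (31.8 ± 2.07) and CTSS (24.0 ± 2.22), with no overlap between neighbours.

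Over the libraries of a line, on log2(TPM + 1), CTSS correlated with CTSO (Pearson r = 0.975 in U87, n = 13, and 0.711 in U251, n = 15), RFX5 (0.971 and 0.955) and IFI30 (0.867 and 0.974). Its r with CTSC was -0.15 in U87 and 0.88 in U251, and with CTSB -0.59 and -0.63. These values describe libraries that fall into 5 groups, so they hold the group differences given above. Of 20473 genes tested in both lines, those most like CTSS in the lower of its 2 correlations were BTC (0.989 and 0.985), ICAM1 (0.987 and 0.985) and GIMAP2 (0.992 and 0.982). For RFX5 they were GCH1 (0.967 and 0.978), TMEM140 (0.964 and 0.964) and ICAM1 (0.987 and 0.963), and for CTSO they were CCL8 (0.968 and 0.951), HLA-DQA1 (0.988 and 0.926) and FMO5 (0.922 and 0.927). For IFI30 they were the overlapping ENSG00000268173 (0.931 and 0.981), HLA-DQB1 (0.928 and 0.969) and HLA-DRB1 (0.937 and 0.919).

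The class II molecules that these proteases serve were counted over a list of 12 genes (CD74, the HLA-DR, HLA-DQ and HLA-DP chains, HLA-DM and HLA-DO). All 12 passed as higher at D3, D28 and D28WO in both lines, and all 12 as lower at D14 than at D3. Of all genes, 12.4%, 17.2% and 28.6% were higher at these 3 times in U87 and 24.9%, 25.9% and 14.3% in U251, and 3.32% and 12.6% were lower at D14 than at D3. At D14, 1 of the 12 in U87 (4.14% of all genes) and 11 in U251 (13.8%) were above Untreated. Between D28WO and D28 none was higher, and 1 in U87 (8.44% of all genes) and 10 in U251 (18.8%) were lower. Their median log2 fold change at D28 was 1.15 in U87 and 6.57 in U251. CD74, the invariant chain, went from 313 ± 42.8 to 888 ± 131 TPM at D28 in U87 and from 1.62 ± 1.09 to 589 ± 37.3 TPM in U251. By log2 fold change at D28 (4.56 and 3.50), HLA-DOB and HLA-DOA, which form the modulator of HLA-DM, rose the most of the list in U87. They went from 0.452 ± 0.782 to 30.7 ± 4.47 TPM and from 17.8 ± 9.35 to 190.5 ± 40.4 TPM. HLA-DRA was listed at 0 in the Untreated libraries of U251 and reached 303 ± 6.12 TPM at D28.

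Of 7 other factors of class II promoters (CIITA, RFXAP, RFXANK, NFYA, NFYB, NFYC and CREB1), 1 passed as higher in U87 at D3 (12.4% of all genes), none at D14 (4.14%), 1 at D28 (17.2%) and 5 at D28WO (28.6%). None passed as lower there, where the shares of all genes were 4.28%, 1.02%, 6.55% and 13.4%. In U251, 4, 3, 2 and 3 were higher in time order, beside 24.9%, 13.8%, 25.9% and 14.3% of all genes. CIITA, the coactivator that works through RFX5, was at 43.6 ± 9.46 TPM in Untreated U87 cells and at 154, 50.3, 174 and 192 TPM in the treated groups in time order. In U251 it went from 1.88 ± 0.727 TPM to 130.5 ± 5.85, 7.48 ± 0.621, 131 ± 7.57 and 102 ± 6.56 TPM. NFYC, a subunit of NF-Y, went from 79.5 ± 1.32 to 97.1 ± 6.88 TPM at D28 in U251 (log2 fold change 0.28, adjusted p = 0.00262).

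Other lysosomal peptidases, 14 genes of which 12 were tested in U87 and 13 in U251, moved in both directions. At D28, 3 were higher (17.2% of all genes) and 2 lower (6.55%) in U87, and 3 higher (25.9%) and 4 lower (14.7%) in U251, with a median log2 fold change of -0.055 and 0.029 beside 0.19 and 0.16 for all genes. CPVL, a serine carboxypeptidase, was higher in both lines, from 1.65 ± 0.820 to 4.90 ± 0.974 TPM in U87 (adjusted p = 0.0264) and from 5.53 ± 1.86 to 27.9 ± 4.02 TPM in U251 (adjusted p = 1.88e-05). CTSH, an aminopeptidase, fell in U251 from 170.4 ± 10.5 to 76.0 ± 2.85 TPM (adjusted p = 4.24e-09). In U87 the collagen-degrading CTSK fell from 88.0 ± 4.45 to 58.2 ± 3.70 TPM (adjusted p = 0.000525) and the thymic protease CTSV from 15.6 ± 1.03 to 9.72 ± 1.01 TPM (adjusted p = 0.0111).

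Cystatins inhibit cysteine cathepsins. Of 9 listed, 3 were tested in U87 and 4 in U251. CSTA passed as higher at D28 in both lines, from 3.996 ± 1.29 to 21.4 ± 1.23 TPM in U87 (adjusted p = 0.000172) and from 0 in every Untreated library to 2.60 ± 1.56 TPM in U251 (adjusted p = 0.00302). In U251 its mean reached the filter of 0.5 TPM through treated libraries alone, so the filter itself favoured a rise there. In U87 CSTA was the 1 of 3 cystatins that passed as higher at each treated time (12.4%, 4.14%, 17.2% and 28.6% of all genes), and none passed as lower. In U251 CSTA at D28 was the 1 of 4 that passed as higher (25.9% of all genes), and CST3, the abundant secreted inhibitor, was the 1 that passed as lower, at D14 (7.31%). It had group means of 148 to 170.2 TPM in U87 and 183 to 249 TPM in U251.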

How the data were processed

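RNA of U87 and U251 cells was measured in the samples described above. The deposited values are TPM, 1 table per line. The labels and the study's methods name FastQC, Trim Galore, STAR, featureCounts and GRCh38, and how the authors computed TPM from the counts is not given in the sources used here. No step used 2 identically named columns of the U87 table. Depth is unknown, because TPM keeps none.

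Values were taken as log2(TPM + 1), so fold changes of low genes are understated. Genes whose mean in a line reached 0.5 TPM were fitted with limma 3.58.1 in R 4.3.3 (eBayes with a trend, 5 groups of a line in 1 fit), and the procedure was tested on simulated data. Tables and figures were made with Python 3.11.15. Coordinates and exon overlaps come from GENCODE release 44. The members and the gene lists (class II molecules, promoter factors, other lysosomal peptidases, cystatins, lysosome biogenesis and membrane, other lysosomal hydrolases, vacuolar ATPase, and markers of glial, myeloid, lymphoid and endothelial cells) were chosen with earlier results of these data known. Genes named from a list are the up to 3 with the largest change at D28 in a line among those past the threshold whose libraries did not overlap with Untreated, together with CD74, CIITA and CST3, which were named for their roles with their values known. The most alike genes are the 3 with the highest lower correlation of the 2 lines. Alternatives were another pseudocount (0.1), no filter or one at 1 TPM, quantile normalization, median-ratio size factors, array weights, the replicate number as a block, only the 2 compared groups, and leaving out each library in turn. One gene that this rule picks and 1 motif search are not reported here.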

Additional observations from a re-analysis of the deposited data

Results flagged for a closer look

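In 7 cases every treated library of a gene lay beyond all Untreated libraries in one direction in U87 and in the opposite direction in U251. In time order these were 1, 2, 3 and 1 of the 10 members, beside 6.77%, 6.41%, 6.46% and 6.22% of the 20473 genes tested in both lines that showed the same opposite pattern. The difference between the lines was not tested in any of them. For CTSZ, the log2 fold change was 0.85 in U87 and -0.19 in U251 at D3, and 0.75 and -0.11 at D28. For CTSL it was -0.23 and 0.21 at D14, and -0.30 and 0.49 at D28. IFI30 at D14 had -0.15 in U87 and 0.67 in U251. CTSD had -0.28 and 0.19 at D28, and -0.19 and 0.18 at D28WO. By the test within each line, both values passed for CTSZ at D3, CTSL at D28 and CTSD at D28, and of these, leaving out single libraries ended the CTSD calls of both lines and the CTSZ call of U87.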

How the results depend on the processing

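Of 218 alternative counts of members that passed, 197 were within 1.5 times the reported count, and all 21 others were in U87. Against Untreated, the count at D14 went from 1 to 0 with no filter on low values, with quantile normalization, with median-ratio size factors, with the replicate block and with only the 2 compared groups, and ranged from 0 to 1 when a library was left out. At D3 it ranged from 3 (without D3 replicate 2) to 6, around 5. At D28 it went from 7 to 4 with quantile normalization and to 3 with only the 2 groups. Between D14 and D3 it went from 4 to 0 with only the 2 groups, and between D28WO and D28 from 2 to 1 with no filter and with the replicate block, to 0 with median-ratio size factors, and from 0 to 2 without single libraries.

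No member difference that passed changed sign under any alternative, and 18 of 33 in U87 and 8 of 55 in U251 lost their call under at least 1 of them. Members were followed under the alternatives in every comparison with Untreated, but between treated groups only where they had passed. Among these, signs changed only for differences that had not passed. In U87 these were, with quantile normalization, CTSC at D3 (0.033), CTSZ (-0.30) and CTSO (-0.012) at D14, CTSB at D28 (0.0016), and CTSL (0.058) and CTSD (0.057) at D28WO. With median-ratio size factors they were CTSZ (-0.063), CTSC (-0.10) and LGMN (-0.086) at D14, and CTSC (-0.17) and LGMN (-0.010) at D28WO, and with the replicate block LGMN at D14 (-0.012). Without single libraries CTSS at D14 ranged from -0.050 to 0.044 and CTSZ from -0.015 to 0.16. In U251 LGMN at D14 became -0.069 with median-ratio size factors and -0.0075 with array weights, and ranged from -0.054 to 0.10 without single libraries. CTSZ at D28WO became -0.014 with median-ratio size factors and ranged from -0.0024 to 0.038. The causes were not tested, beyond the fewer libraries or more genes that some settings have by construction.

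Same-numbered libraries of different groups shared no deviation from their group means (correlations of -0.058 to 0.047 over 23 pairs in U87 and -0.037 to 0.048 over 30 in U251), so the replicate numbers were not taken as pairs. With only the 2 compared groups of U87 fitted, the total of genes that passed fell except between D28WO and D14 (3425 higher and 2636 lower against 3284 and 2645). At D14, 54 were higher and 5 lower than in Untreated against 948 and 234, at D3 886 and 196 against 2843 and 980, at D28 1861 and 589 against 3945 and 1500, and at D28WO 6349 and 2892 against 6561 and 3065, and between D14 and D3 none passed against 337 and 761. TPM holds no depth, so precision at low levels such as that of CTSZ in U87 is unknown.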

Other observations

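Among genes of the lysosome other than peptidases, of 16 tested genes of lysosome biogenesis and membrane, none was higher and 2 were lower at D28 in U87, and 4 were higher and 5 lower in U251. Of all genes, 17.2% were higher and 6.55% lower at D28 in U87, and 25.9% were higher and 14.7% lower in U251. SORT1, a sorting receptor for lysosomal proteins, fell in both lines, from 23.8 ± 2.65 to 11.7 ± 3.92 TPM in U87 (limma, adjusted p = 0.0202) and from 119 ± 6.78 to 70.4 ± 2.96 TPM in U251 (adjusted p = 2.29e-07). The tetraspanin CD63 fell in U87 from 792 ± 45.5 to 652 ± 58.1 TPM (adjusted p = 0.0133). In U251 the cholesterol exporter NPC1 rose from 49.5 ± 5.86 to 111 ± 2.23 TPM (adjusted p = 3.6e-07) and the cation channel MCOLN1 from 41.8 ± 7.31 to 94.4 ± 8.56 TPM (adjusted p = 8.47e-06). Of 14 tested hydrolases, 1 was higher and 1 lower at D28 in U87. In U251, 9, 8, 8 and 7 of the 14 were lower in time order, beside 16%, 7.31%, 14.7% and 13.4% of all genes, and 4 were higher at D28, where their median log2 fold change was -0.24 beside 0.16 for all genes. Among those lower at D28 were PSAP, the precursor of the saposins, which went from 826 ± 33.7 to 471 ± 51.6 TPM (adjusted p = 1.31e-05) and the glucuronidase GUSB, which went from 182 ± 12.3 to 127 ± 4.16 TPM (adjusted p = 2.05e-05). The galactosidase GLA rose in U251 from 70.9 ± 3.82 to 135 ± 6.98 TPM (adjusted p = 1.16e-07), and the arylsulfatase ARSA in U87 from 25.8 ± 3.56 to 48.6 ± 3.86 TPM (adjusted p = 0.000202).

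The vacuolar ATPase, which acidifies the lysosome, had 15 tested subunits. In U87, 1 was higher and 4 lower at D28 (17.2% and 6.55% of all genes), and 1 higher and 9 lower at D28WO, where 28.6% of all genes were higher and 13.4% lower. In U251, 7 were higher and 1 lower at D3 (24.9% and 16% of all genes), and 0 higher and 2 lower at D14 (13.8% and 7.31%). Later, 5 were higher and 2 lower at D28 (25.9% and 14.7%), and 1 higher and 2 lower at D28WO (14.3% and 13.4% of all genes). ATP6V1B2 was higher at D28 in both lines, from 98.7 ± 6.99 to 123 ± 13.3 TPM in U87 (adjusted p = 0.0184) and from 111 ± 1.48 to 136 ± 5.76 TPM in U251 (adjusted p = 0.00792). In U87 ATP6V0B fell from 318 ± 10.3 to 244 ± 20.5 TPM (adjusted p = 0.00649) and ATP6V1D from 276 ± 7.77 to 212 ± 7.02 TPM (adjusted p = 0.000509).

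Among markers of other cell types, 4 of 5 lymphoid genes stayed under 1 TPM in every library of each line. The endothelial cadherin CDH5 was at 25.2 to 31.0 TPM in the Untreated U251 libraries, 0.492 to 0.651 TPM at D3, 8.65 to 17.3 TPM at D14, 0.488 to 1.71 TPM at D28 and 1.31 to 3.56 TPM at D28WO, and at most 1.70 TPM in U87. The other endothelial markers did not share this fall in U251. PECAM1 lay at 0.0763 to 1.71 TPM in Untreated and 1.84 to 2.38 TPM at D28. VWF lay at 1.21 to 5.63 TPM in Untreated and 0.741 to 1.84 TPM at D28, with overlap.

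For the members not given above, the most alike genes over the libraries of both lines were BSG (r = 0.930 in U87 and 0.929 in U251) for CTSB, BRI3 (0.870 and 0.787) for CTSD, DPYD (0.882 and 0.891) for CTSZ, LMO2 (0.822 and 0.861) for CTSL, LCP2 (0.781 and 0.924) for LGMN and REXO2 (0.717 and 0.762) for CTSC.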
